A study of Mus musculus with 12 samples.

Results

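The subject here is the interaction between azoxymethane (AOM) and dextran sulfate sodium (DSS) in mouse colon: how far expression in AOM/DSS neoplasms lay from the sum of the changes after each agent alone. All 12 of the 12 arrays of the series entered it, 3 in each of 4 labelled groups, with RNA from the distal colorectum of female BALB/c mice taken at day 100. The mice were 5 to 7 weeks old at the start. AOM/DSS mice received 1 dose of AOM at 12.5 mg/kg on day 1 and then DSS for 5 days of every 21-day cycle, 3 cycles in all, from day 5. AOM mice received 10 mg/kg weekly, 6 times, from day 1. DSS mice received the same 3 DSS cycles without AOM, and control mice received neither agent. The groups therefore differ in more than the agents. AOM/DSS samples are clipped neoplasms kept in RNA storage solution, whereas AOM, DSS and control samples are epithelium scraped off with a slide into Trizol, and the AOM dose and schedule of the 2 AOM-treated groups are not the same. Tissue type, collection and dose cannot be told apart from the interaction in this design, and the labels do not say that replicates are separate mice, so each p-value reflects the scatter among these arrays, which may be technical.

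AOM is a procarcinogen whose activated form alkylates DNA, and DSS injures the colonic epithelium and causes colitis, so their combination is a widely used model of colitis-associated colon cancer. Wnt signalling maintains the stem cells at the crypt base and is commonly activated in such neoplasms, while absorptive, goblet and enteroendocrine cells are the differentiated products of the crypt. Additivity was defined on the log2 scale, on which adding 2 changes means multiplying 2 fold changes. For each gene the additive sum was the AOM mean plus the DSS mean minus the control mean, and the departure was the AOM/DSS mean minus that sum. A positive departure is called above additive and a negative one below additive. Levels are log2 processed signal minus the 75th percentile of the array, and a call means an adjusted p under 0.05 (limma, Benjamini-Hochberg over all genes tested).

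Arrays of AOM/DSS neoplasms were brighter, with 75th percentiles of intensity from 1115 to 1185 where the remaining 9 arrays had 393 to 694, and 62.6 to 66.2% of probes were well above background against 52.0 to 59.3%. The epithelial markers Epcam and Cdh1, an adhesion molecule and a cadherin, were well measured in every group: Epcam lay between 4.45 and 5.62 on all 12 arrays, and its departure was -0.35 ± 0.37 (SE, adjusted p = 0.467; 0.27 with slide as a block). These 2 markers do not stand for the whole list of 12 epithelial genes. Of that list 9 were called lower in AOM/DSS than in control, 5 were below and 1 above additive, and the median departure was -1.14. Arrays came on 3 slides, none of which held all 4 groups. AOM replicates 1 and 2 shared a slide with AOM/DSS replicates 1 and 2, AOM replicate 3 with the 3 DSS arrays, and AOM/DSS replicate 3 with the 3 control arrays.

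Of 18953 genes tested, 6683 departed from additivity, which is the background of 35.3% against which each count below is read. There were 3704 above additive (19.5%) and 2979 below (15.7%). Sizes were large: 49.0% of all genes had a departure over 1 log2 unit in size, and the median departure was -0.10. The split between the directions moved with the scaling and the filter: 55.4% of calls were above additive, 37.7% with arrays scaled to their median 61.4% with the 75th percentile taken over probes with a gene symbol, and 43.5% when signal was required on all 12 arrays. Median scaling and the symbol-probe percentile put the median of all genes at -0.50 and 0.02. Among genes called, 3282 were called without each array in turn, 2087 above and 1195 below additive. The count itself was lowest without DSS replicate 2 (3582), DSS replicate 3 (3865), AOM/DSS replicate 1 (3911) and control replicate 2 (4267). With normexp background correction, which lifted the low signals of 3 arrays, 73 genes were called, and with plain background subtraction, chosen after seeing the data, 5852. With slide as a fixed block, 2 genes were called, both above additive, since the contrast is then chained across slides and its median standard error rises from 0.45 to 1.01 log2 units. In that fit, which uses the same arrays, the sign of 6655 of the 6683 called genes was kept. Every adjusted p of a gene named below by its symbol is at least 0.152 with this block, and the block's value is given beside most of them.

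The calls were sorted by the pairwise differences of the same fit. Above additive, 669 genes (18.1%) were higher in AOM/DSS than in each of the other groups, and 1995 (53.9%) were instead called lower than control after AOM or DSS alone. The other 1040 (28.1%) met neither description. Below additive, 902 genes (30.3%) were lower in AOM/DSS than in each other group, 986 (33.1%) had risen after a single agent, and 1091 (36.6%) met neither. The single-agent calls came almost entirely from AOM: 6137 genes (32.4%) differed between AOM and control and 62 (0.327%) between DSS and control. AOM/DSS differed from AOM in 37.1% of genes, from DSS in 35.9% and from control in 34.7%. All of these comparisons share arrays with the departure itself.

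Of the 12 leading positive departures among genes measured on all 12 arrays, those called higher in AOM/DSS than in each other group were Aspa, Rnf32, Defa3, Slc39a8 and Ccdc141. Aspa encodes aspartoacylase, which splits N-acetylaspartate. It measured 0.61, 0.64 and -0.17 in control, -0.75, -1.73 and -1.41 after DSS, between -1.84 and 0.24 after AOM, and 3.86, 3.19 and 3.32 in AOM/DSS. All 3 neoplasm arrays stood above all 9 others, and the additive sum was -2.19. Its departure was 5.65 ± 0.72 (SE, adjusted p = 0.0044, 95% interval 4.06 to 7.24; 7.48 with slide as a block). Slc39a8, a zinc and manganese importer, was at 2.51, 2.33 and 2.35 in AOM/DSS against -1.90 to 0.50 on the other arrays, with a departure of 3.78 ± 0.81 (adjusted p = 0.0119; 5.56 with the block). Defa3, an alpha-defensin of Paneth cells whose probe may also read near-identical defensin genes, was at 6.93, 6.45 and 7.70 in AOM/DSS. The other arrays lay between 2.31 and 4.13 except control replicate 2 at 5.66. The departure was 3.81 ± 1.01 (adjusted p = 0.0198; 2.55 with the block). For the RING finger gene Rnf32 and for Ccdc141 the departures were 4.73 ± 1.07 and 3.48 ± 0.78 (adjusted p = 0.013 and 0.0127; 9.69 and 6.20 with the block).

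**Figure D1:**
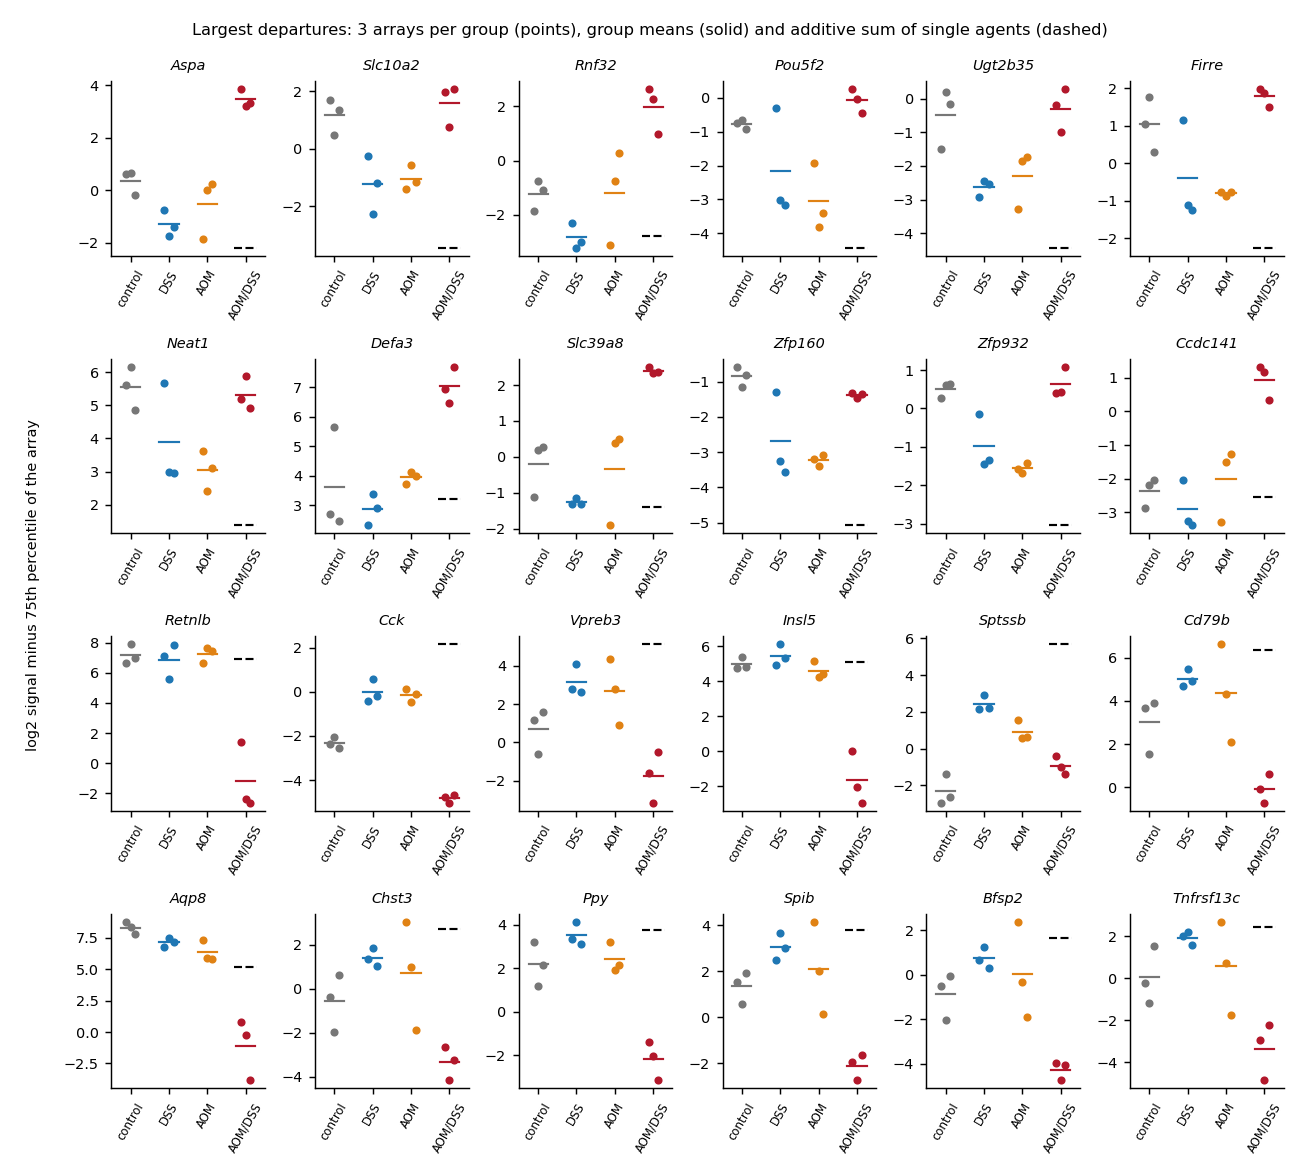
The 12 largest departures above additive (upper rows) and the 12 largest below (lower rows) among genes measured on all 12 arrays. Each point is 1 array, solid lines are group means, and the dashed line over AOM/DSS is the additive sum of the single-agent changes; the vertical axis is log2 signal minus the array's 75th percentile. Retnlb lies at 6.94 for the additive sum and between -2.65 and 1.41 on the AOM/DSS arrays.

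Among Wnt target and stem cell genes of the crypt, 19 were tested; 3 were above additive, none below and 16 were not called. That share of 15.8% is near the background of 19.5%, and the median departure was 0.96 against -0.10 over all genes. With slide as a block the median was 3.13 and none was called. The stem cell receptor Lgr5 measured -2.21, -0.72 and -1.94 in control, -4.93, -3.34 and -6.00 after DSS, -2.69, 0.80 and 0.43 after AOM, and 2.63, 1.66 and 1.49 in AOM/DSS. The DSS arrays were the lowest and the AOM/DSS arrays the highest, without overlap with any other group. Its departure was 5.54 ± 1.29 (adjusted p = 0.0139; 8.26 with the block). Of the 19 genes 10 were well above background on all 12 arrays. Lgr5 was not, so its additive sum and the size of its departure are uncertain. Neither single-agent difference was called: DSS minus control was -3.13 (adjusted p = 0.14) and AOM minus control 1.14 (adjusted p = 0.35). Znrf3, a ubiquitin ligase that removes Wnt receptors from the cell surface, was at 0.23, 0.22 and -0.28 in AOM/DSS and between -3.95 and -1.48 elsewhere, a departure of 3.42 ± 0.72 (adjusted p = 0.0117; 5.26 with the block). Smoc2, a matricellular protein expressed by crypt stem cells, departed by 2.69 ± 0.70 (adjusted p = 0.0182; 5.27 with the block). Under median scaling 3 of the 19 were above and 1 below additive, and 1 was below without AOM replicate 3 or control replicate 3.

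Other Wnt target genes that were high in the neoplasms were not called. Nkd1, a feedback inhibitor that binds dishevelled, measured -4.65, -4.20 and -1.87 in control, -1.85, -1.45 and -2.84 after DSS, -0.37, 4.12 and 4.18 after AOM, and 4.54, 4.84 and 4.54 in AOM/DSS. AOM replicate 1 lay apart from the other AOM arrays, which came close to the neoplasms. The departure was 0.47 ± 1.56 (adjusted p = 0.824), and its 95% interval of -2.99 to 3.93 spans wide departures in both directions. Wif1, a secreted Wnt inhibitor, gave 0.81 (interval -2.21 to 3.84, adjusted p = 0.654) and the feedback gene Axin2 gave 1.54 (interval -0.60 to 3.67, adjusted p = 0.222). Notum, a lipase that inactivates Wnt proteins, gave 2.36 (interval -0.80 to 5.52, adjusted p = 0.207) but was not well above background on any control or DSS array. With slide as a block these 4 values were 3.73, 4.16, 3.48 and 6.38, none of them called.

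Of 12 Wnt antagonists, none was called above additive and 2 below (16.7%, near the background of 15.7%). Without 1 AOM array, 1 or 2 were above and 1 below, and without DSS replicate 2, DSS replicate 3 or control replicate 2, 1 was below. Sfrp2, a secreted Frizzled-related inhibitor made by stromal cells, measured -4.53, -2.65 and -0.18 in control, -0.17, 0.19 and -2.07 after DSS, -2.69, 0.08 and -0.72 after AOM, and -4.86, -5.21 and -7.13 in AOM/DSS. The neoplasm arrays were the lowest of the 12, although control replicate 1 lay close to them. The departure was -6.39 ± 1.58 (adjusted p = 0.0158; -2.81 with the block). Trabd2b, a metalloprotease that cleaves Wnt proteins, was at -2.95 ± 0.96 (adjusted p = 0.0372), but at 0.64 once slide was a block, while its call ended without any 1 AOM or control array or DSS replicates 2 or 3 (adjusted p up to 0.0791). Neither Sfrp2 nor Trabd2b was well above background on every array, so the sizes of both departures are uncertain. With signal required on all 12 arrays, 5 antagonists were tested and none was called.

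**Figure D2:**
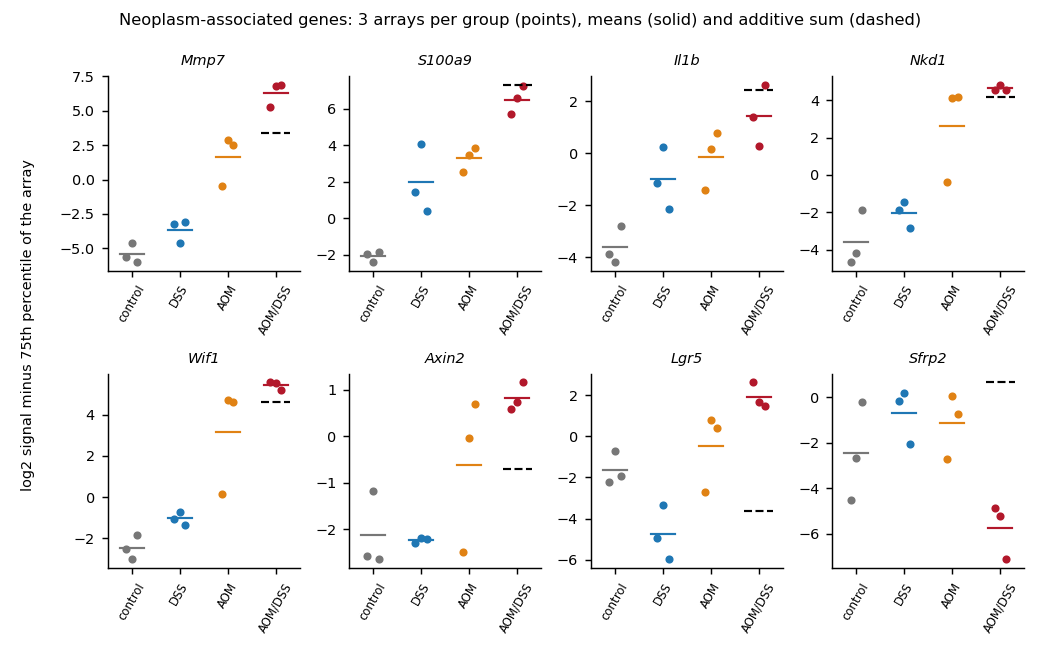
Levels of 8 genes associated with neoplasms on each array, with group means (solid) and the additive sum (dashed over AOM/DSS), in log2 signal minus the 75th percentile. For Nkd1 and Wif1 the neoplasm arrays lie within about 1 log2 unit of the dashed line (4.54 to 4.84 against 4.17 for Nkd1), whereas for Lgr5 they lie far above it (1.49 to 2.63 against -3.62) and for Sfrp2 far below it (-4.86 to -7.13 against 0.66). Lgr5 and Sfrp2 were not well above background on every array, so these distances are uncertain.

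No departure was called for the inflammatory genes S100a9, Il1b, Cxcl5, Mmp7, Lcn2 and Reg3g. S100a9, a calprotectin subunit abundant in neutrophils, measured -1.95, -2.39 and -1.88 in control, 1.43, 4.08 and 0.39 after DSS, 2.55, 3.49 and 3.84 after AOM, and 5.74, 6.58 and 7.24 in AOM/DSS. The controls were the lowest and the neoplasms the highest, with no overlap between those groups and the single-agent groups. The additive sum was 7.33 and the departure -0.81 ± 1.11 (interval -3.26 to 1.63, adjusted p = 0.574; -1.15 with the block). Interleukin Il1b and the neutrophil-attracting chemokine Cxcl5 gave -1.02 (interval -3.45 to 1.42) and -0.86 (interval -3.82 to 2.10), with adjusted p = 0.478 and 0.628 (-1.58 and -1.05 with the block). The metalloproteinase Mmp7, which intestinal adenomas express, was at 5.27, 6.77 and 6.88 in AOM/DSS against an additive sum of 3.40, and its departure of 2.91 ± 1.19 missed the threshold (adjusted p = 0.0763; 3.45 with the block). The lipocalin Lcn2 gave 1.59 and the lectin Reg3g -2.93 (adjusted p = 0.451 and 0.196; 2.43 and -6.97 with the block). Mmp7, Cxcl5 and Lcn2 were not well above background on any control array, which makes their additive sums uncertain.

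Of 12 antimicrobial genes 4 were below and none above additive (33.3% against a background of 15.7%), 2 were below without AOM replicate 2, AOM/DSS replicate 1 or DSS replicate 2 and with quantile normalization, and the median was -1.35 (-2.17 with slide as a block). The deepest of the 4 was Retnlb, at -8.16, which is described further below as a goblet cell product. Wfdc18, a secreted protein with a WAP domain, measured 0.63, 1.98 and -1.26 in control, 4.44, 5.16 and 4.23 after DSS, 5.69, 7.04 and 6.93 after AOM, and 6.62, 7.48 and 7.66 in AOM/DSS. The controls were the lowest, and the AOM and AOM/DSS arrays overlapped. AOM/DSS minus control was 6.80 (adjusted p = 0.000101), and the departure was -3.46 ± 0.99 (adjusted p = 0.025; -3.53 with the block), a call that ended without AOM replicate 2, AOM/DSS replicate 1 or DSS replicate 2. On the linear scale Wfdc18 lay above its additive sum. Slpi, a leukocyte protease inhibitor, was at 5.15, 4.83 and 6.08 in AOM/DSS and between 5.76 and 7.83 on the other arrays, so that AOM/DSS replicate 3 overlapped control. Its departure was -2.34 ± 0.67 (adjusted p = 0.0249; -4.21 with the block), and its call ended without AOM replicate 2, AOM/DSS replicates 1 or 2 or DSS replicate 2.

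The cytokine, remodelling, neutrophil and interferon lists gave shares below additive near or under that of all genes, 15.7%. Larger shares came from the antimicrobial list (33.3%), macrophages (50%), T cells (41.7%) and 12 epithelial repair genes (25%). Of 8 genes of MHC class II presentation 2 were below (25%), with a median of -1.95, and 1 to 5 without 1 array. With normexp background correction the cytokine and neutrophil medians moved from -0.86 and -0.81 to 0.62 and 0.85. Of 16 cytokines and chemokines 1 was below additive (6.25%) and of 14 remodelling genes 2 were below (14.3%). The remodelling count was 5 without control replicate 3 and 1 without any other array but DSS replicate 1. The chemokine called was Ccl5, which attracts T cells, at -3.81 ± 1.12 (adjusted p = 0.0268); its call ended without AOM/DSS replicates 1 or 2, DSS replicate 2 or control replicate 2, and it was at -6.60 with the block. Timp1, an inhibitor of metalloproteinases and 1 of the 2 remodelling genes called, was 3.05 higher in AOM/DSS than in control (adjusted p = 0.0015). It departed by -2.10 ± 0.72 (adjusted p = 0.0447; -3.25 with the block), a call that ended without any 1 array but DSS replicate 1 or control replicate 3. Of 9 neutrophil markers none was called by limma, 3 had an unadjusted p under 0.05, and 2 were below additive without DSS replicate 3 or control replicate 3. Plaur, the urokinase receptor, showed a single-agent rise that did not add: it was at 0.28, 0.12 and 0.26 in control, 0.75, 2.21 and 2.18 after DSS, 2.19, 2.31 and 2.39 after AOM, and 1.68, 1.28 and 1.69 in AOM/DSS. Its neoplasm arrays lay above control and below all AOM arrays, with a departure of -2.24 ± 0.49 (adjusted p = 0.012; -2.35 with the block). Sprr1a, a cornified-envelope protein induced in regenerating epithelium, was at -0.80, -0.50 and -0.04 in AOM/DSS and 2.64, 2.57 and 2.93 after AOM. It departed by -5.80 ± 1.05 (adjusted p = 0.0096; -6.18 with the block). In the opposite direction, the epidermal growth factor family ligand Ereg was well above background only in AOM/DSS, at -3.05, -3.96 and -3.64, and departed by 2.32 ± 0.51 (adjusted p = 0.0123; 2.72 with the block). The size is uncertain, because the other 3 groups were not well above background: with such values raised to the lowest signal well above background the departure was 1.07. Among interferon response genes 2 of 14 were below additive (14.3%, near the background of 15.7%), and 1 without AOM/DSS replicates 1 or 2 or DSS replicates 2 or 3. The larger departure was that of the interferon-induced transcription factor Irf7, at -2.70 ± 0.51 (adjusted p = 0.0099; -3.73 with the block).

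Genes of proliferation were high after AOM as well as in the neoplasms. Of 22 cell cycle genes 18 were called higher after AOM than in control and 15 higher in AOM/DSS than in control (14.8 and 17.2% of all genes were called in that direction). Of the 22, 1 departed above and 1 below additive (4.55% each, against 19.5 and 15.7% of all genes). The 1 below was the mitotic kinase Plk1, at -1.66 ± 0.55 (adjusted p = 0.0398; -2.10 with the block), a call that ended without any 1 array but DSS replicate 1 or control replicate 3. The count below was 6 without DSS replicate 1, 3 without control replicate 3, 2 without AOM/DSS replicate 3 and 0 without any other array. The mitotic kinase Cdk1 departed by -0.73 (interval -2.05 to 0.60, adjusted p = 0.349; -1.39 with the block). Ccne2, a cyclin of S-phase entry, was the one above additive: -2.94, -2.29 and -2.54 in AOM/DSS against -4.34 to -3.11 on the other arrays, a departure of 1.97 ± 0.41 (adjusted p = 0.0117; 2.03 with the block). Ccne2 was not well above background on every array, so this size is uncertain. With signal required on all 12 arrays 20 cell cycle genes were tested, of which 0 were above and 2 below additive. Of 14 p53 target genes 3 were above and 3 below additive (21.4% each, near the 19.5 and 15.7% of all genes). The count below was 0 or 1 without any 1 array but DSS replicate 1 or control replicate 1. Trp53inp1, a p53-induced stress gene, was at 1.57, 2.04 and 2.11 after AOM and 3.67, 3.82 and 3.09 in AOM/DSS, where it overlapped control at 3.51, 2.86 and 3.52. It departed by 2.25 ± 0.45 (adjusted p = 0.0105; 3.53 with the block).

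A second form of positive departure was a fall after AOM that was not called in the neoplasms. The bile acid transporter Slc10a2, which takes up bile acids from the gut lumen, measured 1.70, 0.47 and 1.34 in control, -0.25, -2.26 and -1.18 after DSS, -1.41, -0.56 and -1.15 after AOM, and 1.96, 0.77 and 2.08 in AOM/DSS. Both single-agent groups lay below both other groups without overlap. AOM minus control was -2.21 (adjusted p = 0.016) and DSS minus control -2.40 (adjusted p = 0.083), and the departure was 5.04 ± 0.76 (adjusted p = 0.0070; 3.88 with the block). Hpgds, a prostaglandin D2 synthase, was at -2.15, -2.09 and -1.83 in AOM/DSS and between -4.79 and -3.28 after AOM, a departure of 3.35 ± 0.72 (adjusted p = 0.0118; 4.27 with the block). Hpgds was not well above background on every array, so the sizes of its fall and its departure are uncertain. With signal required on all 12 arrays, none of 7 prostaglandin genes tested was above additive. The glucuronosyltransferase Ugt2b35 departed by 4.14 ± 0.75 (adjusted p = 0.0096; 4.06 with the block).

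Of 5 nuclear non-coding RNAs tested, 4 were above additive (background 19.5%), with a list median of 3.21, and 3.64 with slide as a block. Neat1, the scaffold of paraspeckles, measured 5.62, 6.17 and 4.86 in control, 5.67, 3.00 and 2.96 after DSS, 3.62, 2.43 and 3.09 after AOM, and 5.18, 5.88 and 4.91 in AOM/DSS. DSS replicate 1 lay with the controls and the other DSS arrays with the AOM arrays. The departure of Neat1 was 3.95 ± 0.96 (adjusted p = 0.0152; 4.87 with the block). Xist, which coats the inactive X chromosome, departed by 3.21 ± 0.68 (adjusted p = 0.0117; 4.01 with the block). It was at 4.66, 4.57 and 3.84 in AOM/DSS, 2.76, 2.15 and 2.29 after AOM, and 4.54, 2.49 and 2.81 after DSS. Kcnq1ot1, the antisense transcript of an imprinted locus, and Malat1, a nuclear speckle RNA named here after its values were seen, departed by 3.72 ± 0.92 and 3.14 ± 0.88 (adjusted p = 0.0161 and 0.0233; 2.58 and 2.68 with the block). Meg3, the remaining member, was at 0.63 ± 1.34 (adjusted p = 0.722; 3.64 with the block). The fall after AOM was called for Neat1, Xist and Malat1 and not for Kcnq1ot1 or Meg3. Without AOM replicate 2, AOM/DSS replicate 1, DSS replicates 2 or 3, or control replicate 2, the call of Malat1 ended and 3 of the 5 were called.

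Among the 12 largest positive departures, Firre, a nuclear RNA of the X chromosome, and the zinc finger genes Zfp160 and Zfp932 followed this order of arrays. Zfp932 was at 0.27, 0.60 and 0.63 in control, -0.15, -1.46 and -1.33 after DSS, -1.58, -1.69 and -1.41 after AOM, and 0.41, 0.43 and 1.09 in AOM/DSS. Its departure was 3.69 ± 0.48 (adjusted p = 0.0047; 3.08 with the block). Firre and Zfp160 departed by 4.03 ± 0.80 and 3.70 ± 0.67 (adjusted p = 0.0105 and 0.0096; 4.67 and 3.89 with the block), and Pou5f2, a POU-domain transcription factor gene, by 4.35 ± 0.99 (adjusted p = 0.0132; 4.40 with the block). DSS replicate 1 was the highest DSS array in each of these genes.

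Of 2193 tested clones with AK accessions and no gene symbol, 1217 (55.5%) were above and 79 (3.6%) below additive, against 19.5 and 15.7% of all genes, and their median departure was 2.39. These shares depend on the filter, which a clone could pass through any 1 group, and the AOM/DSS arrays had the most probes above background. When signal was required on all 12 arrays, 270 of 693 clones (39.0%) were above and 64 (9.24%) below, against 15.4 and 20.0% of all genes, with a median of 0.91. With no filter 1262 of 7059 (17.9%) were above and 85 (1.2%) below, where 3302 and 2337 of all 32167 genes were, with a clone median of 0.15. Normexp background correction called 0 above and 1 below. With all 2193, the median difference of the clones from control was -1.30 after AOM, -0.70 after DSS and 0.20 in AOM/DSS. Genes with a symbol had a median departure of -0.33, with 1611 above and 2465 below additive among 13513. The 2 genes called with slide as a block were both such clones, AK032213 and AK043184.

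**Figure D3:**
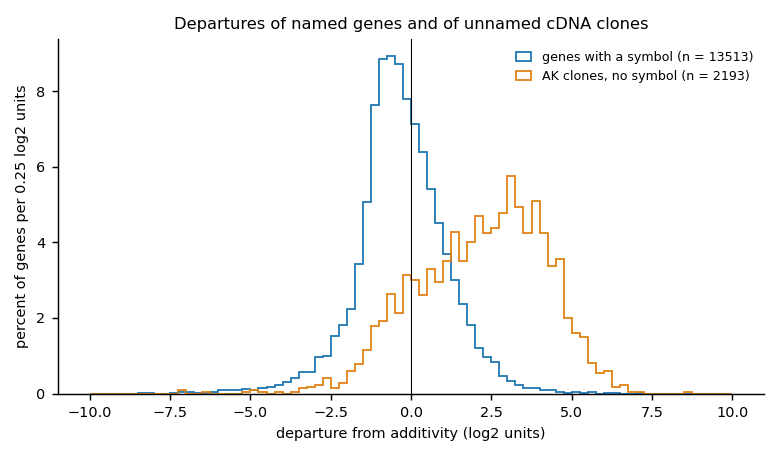
Share of genes (percent, per 0.25 log2 units) by departure from additivity, for 13513 genes with a symbol and 2193 AK cDNA clones without one. The clones form a broad distribution with a median of 2.39, to the right of the genes with a symbol, whose median is -0.33. With signal required on all 12 arrays the clones' median is 0.91, and with no filter 0.15.

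The circadian clock runs on the activators CLOCK and ARNTL, which bind the E-box CACGTG and drive their own repressors. Of 15 clock genes tested, 4 were above (26.7%) and 2 below additive (13.3%), against 19.5 and 15.7% of all genes. After AOM and after DSS, 9 and 4 were called lower than control, against 17.6 and 0.164% of all genes. The upstream sequence of Ciart, a repressor of CLOCK and ARNTL, is shown because it holds 3 copies of that motif, in capitals, the first at -116 from the start of the gene (RefSeq, GRCm38.p6, chr3:95882179-95882478, minus strand, 300 bases).
Ciart: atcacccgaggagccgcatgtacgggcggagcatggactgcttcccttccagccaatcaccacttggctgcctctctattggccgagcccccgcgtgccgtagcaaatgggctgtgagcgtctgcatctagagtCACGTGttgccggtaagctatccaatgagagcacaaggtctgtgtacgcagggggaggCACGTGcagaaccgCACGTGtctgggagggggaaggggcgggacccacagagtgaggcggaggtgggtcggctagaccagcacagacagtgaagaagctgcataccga
In the promoters of 27025 genes, 2187 (8.09%) held a CACGTG within the same window, as did 4 of the 13 clock genes with a sequence, Ciart, Tef, Per1 and Cry1; the motif reads the same on both strands. Ciart measured -1.72, -0.98 and -1.35 in control, -6.40, -5.88 and -5.37 after DSS, -5.13, -3.83 and -2.96 after AOM, and -6.03, -5.17 and -5.06 in AOM/DSS. All treated arrays lay below all controls, and the AOM/DSS and DSS arrays overlapped. Its fitted departure was 3.09 ± 0.72 (adjusted p = 0.0139; 4.39 with the block), although it was not well above background on any DSS or AOM/DSS array, where the sizes of the falls are uncertain. The period gene Per3 differed from control by -2.76, -2.49 and -2.71 after DSS, after AOM and in AOM/DSS, with a departure of 2.54 ± 0.64 (adjusted p = 0.0166; 4.15 with the block). The nuclear receptor Nr1d2 departed by 2.60 ± 0.49 (adjusted p = 0.0099; 3.27 with the block). Of the members named after their values were seen, Clock was above additive (1.85 ± 0.33, adjusted p = 0.0093), and the nuclear receptor Nr1d1 and the activator Arntl were below (-2.20 ± 0.49 and -1.52 ± 0.45, adjusted p = 0.0123 and 0.0281). With the block these 3 values were 1.85, -3.21 and -2.31. The call of Arntl ended without AOM/DSS replicates 2 or 3, DSS replicate 2 or control replicate 2.

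Of the hypoxia and glycolysis list 2 of 16 were above additive (12.5%, against 19.5% of all genes) and none below (2 and 1 under median scaling, and 2 below without DSS replicate 1). Vegfa, the endothelial growth factor, was at 2.35, 1.70 and 1.24 in control, 1.15, 0.24 and 0.59 after DSS, 0.24, 0.58 and 0.69 after AOM, and 1.86, 2.17 and 1.53 in AOM/DSS. The neoplasms overlapped control and stood above both single-agent groups, a departure of 2.45 ± 0.46 (adjusted p = 0.0099; 3.46 with the block). The mitophagy receptor Bnip3 also departed by 2.45 ± 0.46 (adjusted p = 0.0099; 2.83 with the block). Ppargc1a, a coactivator of mitochondrial genes, was low after AOM (0.30, 0.30 and 0.76) and at 1.70, 1.47 and 1.11 in AOM/DSS against 2.72 to 3.31 in control, a departure of 2.48 ± 0.50 (adjusted p = 0.0106; 3.73 with the block).

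Hormone genes of the colonic enteroendocrine cells were among the deepest negative departures. Of 11 tested, 9 were below and 1 above additive, against 15.7 and 19.5% of all genes, with a median of -5.61; those counts were the same without each array in turn. The median was -3.93 with slide as a block. In bulk RNA, fewer cells of a type and less RNA per cell cannot be told apart. Cck, cholecystokinin, had the smallest adjusted p of the genes tested. Its upstream sequence is shown for that reason; it holds 1 CACGTG, in capitals at -66 from the gene's start (RefSeq, GRCm38.p6, chr9:121495645-121495944, minus strand, 300 bases).
Cck: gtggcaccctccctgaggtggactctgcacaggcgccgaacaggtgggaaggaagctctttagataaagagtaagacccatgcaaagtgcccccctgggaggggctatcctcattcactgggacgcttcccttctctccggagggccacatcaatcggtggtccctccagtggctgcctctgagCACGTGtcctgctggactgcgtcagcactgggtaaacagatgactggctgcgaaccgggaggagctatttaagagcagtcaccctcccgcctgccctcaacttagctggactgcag
Cck measured -2.36, -2.04 and -2.57 in control, -0.41, 0.57 and -0.21 after DSS, 0.12, -0.44 and -0.12 after AOM, and -4.75, -5.03 and -4.68 in AOM/DSS. Each agent alone was followed by a rise (2.31 after DSS, adjusted p = 0.014, and 2.18 after AOM, adjusted p = 0.0032), and the neoplasms lay 2.49 below control (AOM/DSS minus control -2.49, adjusted p = 0.00017). The departure was -6.98 ± 0.40 (adjusted p = 6.58e-05; -7.20 with the block).

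The L-cell hormones had no called single-agent difference. Gcg, the proglucagon gene, measured 1.39, 2.87 and 1.96 in control, 2.18, 2.95 and 1.82 after DSS, 2.11, 1.42 and 1.73 after AOM, and -2.56, -6.36 and -6.42 in AOM/DSS. The 9 arrays outside AOM/DSS overlapped fully, and AOM/DSS replicate 1 was the highest of the neoplasms. The departure was -7.11 ± 1.23 (adjusted p = 0.0091; -4.56 with the block). Gcg was not well above background on every array, so this size is uncertain. Insl5, an insulin-like hormone of L cells, was at 0.03, -2.06 and -2.94 in AOM/DSS and between 4.23 and 6.14 elsewhere, a departure of -6.75 ± 0.90 (adjusted p = 0.0051; -4.53 with the block). Ppy, pancreatic polypeptide, departed by -5.97 ± 0.83 (adjusted p = 0.0062; -4.57 with the block).

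**Figure D4:**
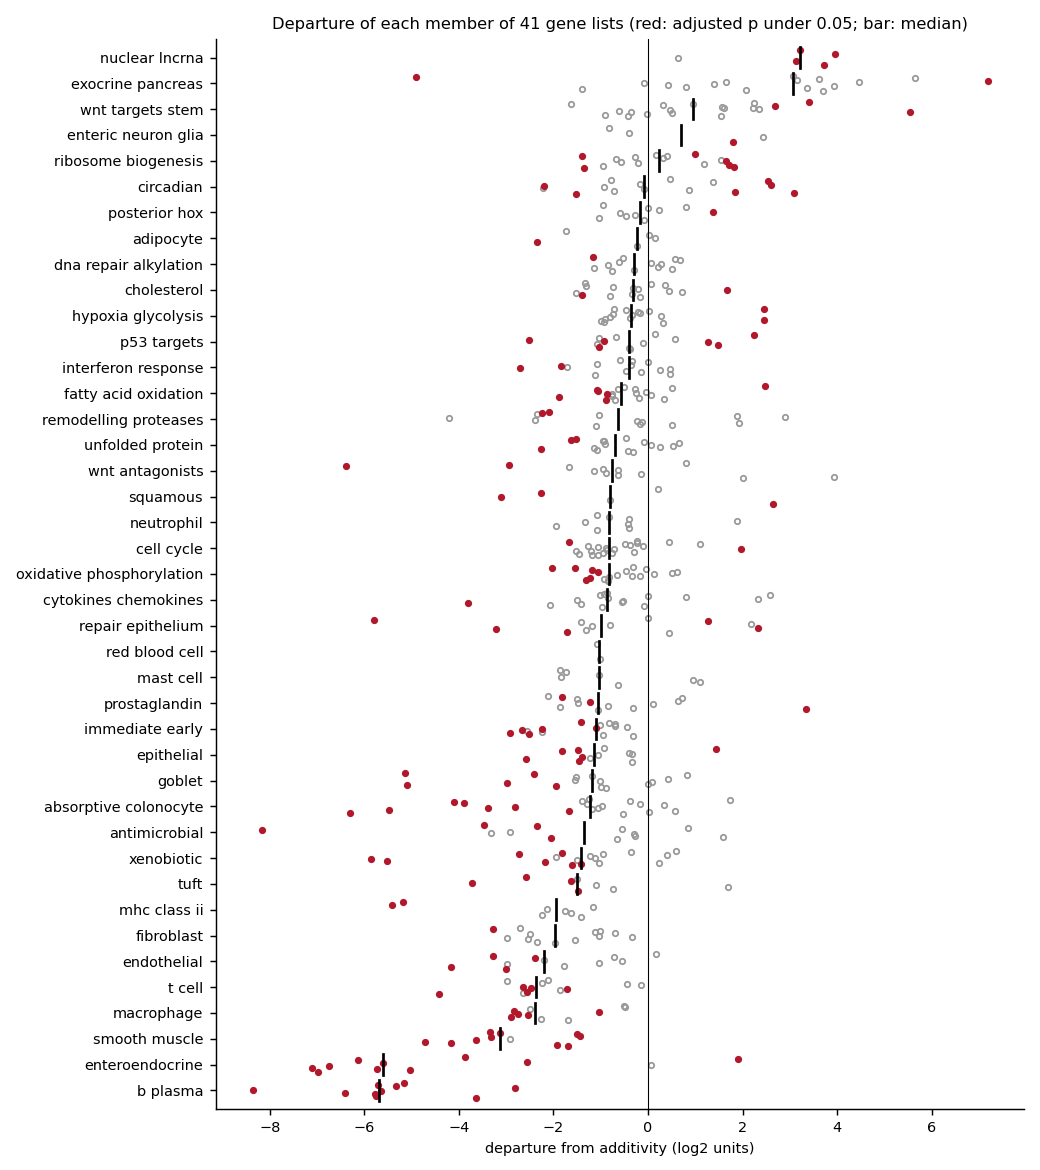
Departure from additivity (log2 units) of each tested member of 41 gene lists, ordered by list median (black bar); filled red points passed an adjusted p under 0.05 and open points did not. B and plasma cell and enteroendocrine genes lie lowest, with medians of -5.68 and -5.61, and nuclear non-coding RNAs highest at 3.21.

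B cell genes formed the other deep group. All 10 tested B and plasma cell markers were below additive (background 15.7%), with a median of -5.68, and 7 to 10 of them were called without 1 array. The median was -10.55 with slide as a block. With signal required on all 12 arrays 5 of these markers were tested, and all 5 were below additive, with a median of -5.72. Fcmr, the receptor for immunoglobulin M, measured 2.12, -0.04 and 2.31 in control, 3.26, 3.90 and 3.89 after DSS, 5.16, 3.15 and 0.35 after AOM, and -2.30, -5.09 and -2.39 in AOM/DSS. The neoplasms were lowest and did not overlap the other groups, while the AOM arrays spread over nearly 5 log2 units. Its departure was -8.36 ± 1.61 (adjusted p = 0.0101; -15.18 with the block). Fcmr was not well above background on every array, so this size is uncertain. Cd79b and Cd79a, the signalling chains of the B cell receptor, departed by -6.42 ± 1.39 and -5.77 ± 1.16 (adjusted p = 0.0119 and 0.0107; -12.30 and -10.63 with the block).

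Several of the 12 largest negative departures were also B cell genes. Vpreb3, expressed in B cell precursors, is shown with its upstream sequence because it was the 1 of the 20 largest departures with a sequence that held an octamer, ATGCAAAT on either strand, the site of the B cell factors of the POU family. The octamer, in capitals at -45, is here on the opposite strand (RefSeq, GRCm38.p6, chr10:75948050-75948349, plus strand, 300 bases).
Vpreb3: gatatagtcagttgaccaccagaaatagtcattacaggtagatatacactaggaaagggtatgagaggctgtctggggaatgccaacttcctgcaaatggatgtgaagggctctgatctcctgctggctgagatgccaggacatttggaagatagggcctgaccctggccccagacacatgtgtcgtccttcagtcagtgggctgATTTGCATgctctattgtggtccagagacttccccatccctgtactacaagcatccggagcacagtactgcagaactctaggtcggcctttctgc
Of the promoters of 27025 genes, 532 (1.97%) held an octamer, and 0 of 5 B and plasma cell markers with a sequence did. Vpreb3 measured 1.15, -0.62 and 1.57 in control, 2.79, 4.08 and 2.63 after DSS, 4.35, 2.77 and 0.88 after AOM, and -1.62, -3.17 and -0.49 in AOM/DSS. AOM/DSS replicate 3 lay just above control replicate 2, so those groups overlapped, and no single-agent change was called. The departure was -6.89 ± 1.32 (adjusted p = 0.0101; -13.00 with the block). Spib, an Ets factor of B cells and of M cells, and Tnfrsf13c, the BAFF receptor, departed by -5.92 ± 1.16 and -5.81 ± 1.5 (adjusted p = 0.0104 and 0.0181; -10.77 and -12.63 with the block).

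The level of the whole B and plasma cell list moved with these genes. Its median was 0.48, -1.29 and 1.18 on the control arrays, 1.99, 2.28 and 1.87 after DSS, 3.14, 0.99 and -1.21 after AOM, and -2.66, -4.82 and -2.76 in AOM/DSS, and its part in the departures of single genes was not tested. Chst3, a chondroitin sulfotransferase, and Bfsp2, an intermediate filament gene of the lens, followed the same order of arrays. Chst3 was at 3.06, 0.99 and -1.87 and Bfsp2 at 2.39, -0.34 and -1.91 on AOM replicates 1, 2 and 3. They departed by -6.08 ± 1.49 and -5.91 ± 1.27 (adjusted p = 0.0155 and 0.0119; -11.50 and -10.25 with the block).

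**Figure D5:**
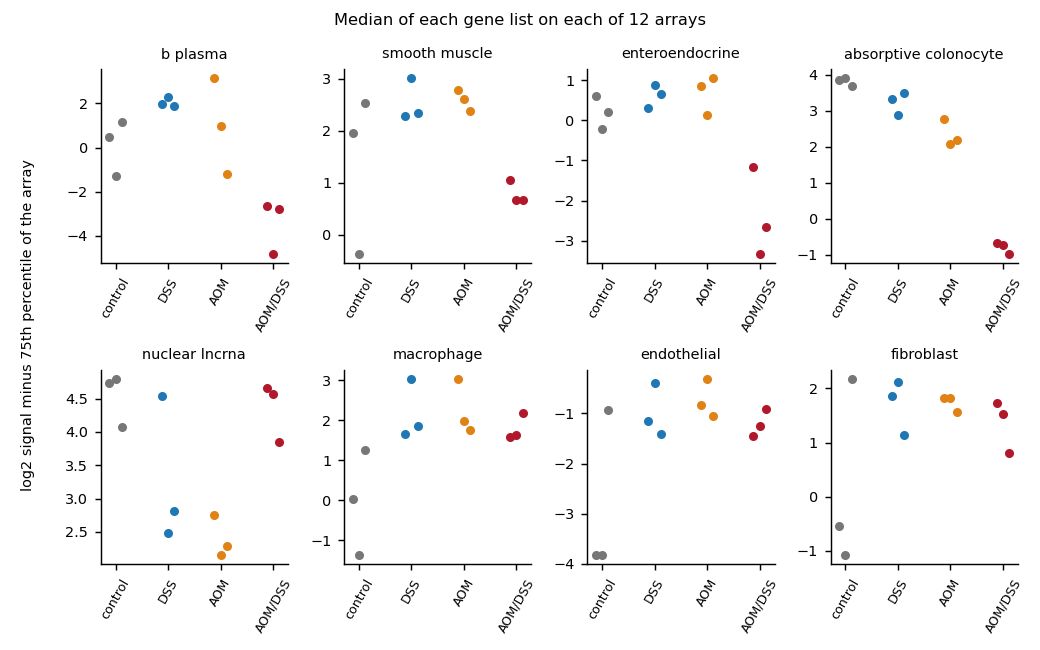
Median level of the tested members of 8 gene lists on each array (log2 signal minus the 75th percentile), 3 points per group. The B and plasma cell median spans -1.21 to 3.14 on the AOM arrays, and fibroblast and endothelial medians are low on control replicates 1 and 2 and high on control replicate 3.

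Of 11 smooth muscle genes 10 were below (90.9% against 15.7% of all genes), with a median of -3.13 (-2.90 with slide as a block) and 8 to 11 called without 1 array. Des, desmin, measured -2.78, -5.04 and -1.02 in control, -1.91, -0.57 and -1.95 after DSS, 0.45, -0.56 and -1.34 after AOM, and -3.16, -4.05 and -4.01 in AOM/DSS. The neoplasms lay below all single-agent arrays and within the range of the controls. Its departure was -4.72 ± 1.22 (adjusted p = 0.0180; -5.90 with the block), and that of calponin, Cnn1, was -4.17 ± 1.09 (adjusted p = 0.0187; -5.01 with the block).

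The controls themselves differed in these markers. Smooth muscle medians were 1.96, -0.38 and 2.54 on control replicates 1, 2 and 3, and fibroblast medians -0.54, -1.08 and 2.17. For the fibroblast list 1 of 13 genes was called below additive with all arrays and 11 without control replicate 3. That gene was Sparc, a matrix glycoprotein, at -3.27 ± 1.16 (adjusted p = 0.0486; -3.09 with the block), and its call ended without any 1 array but DSS replicate 1 or control replicate 3. For the endothelial list 4 of 11 were below with all arrays (36.4% against 15.7% of all genes) and 9 without control replicate 3. With signal required on all 12 arrays, 2 endothelial genes were tested and none was called. The endothelial count was 3 without AOM replicate 3, 2 without DSS replicates 1 or 3, 0 without AOM replicate 1, AOM/DSS replicate 1 or DSS replicate 2, and 1 without any other array. Macrophage and T cell markers gave 5 of 10 and 5 of 12 below (50 and 41.7%, against 15.7% of all genes) and none above. The macrophage count was 0 without AOM/DSS replicate 1, AOM/DSS replicate 2, DSS replicate 2 or control replicate 2, and 3 or fewer without AOM replicates 1, 2 or 3, AOM/DSS replicate 3, DSS replicate 3 or control replicate 1. For T cells the count was 0 without DSS replicate 2, 1 without AOM/DSS replicate 1, AOM/DSS replicate 2 or control replicate 2, 2 or 3 without AOM replicates 1 or 2, AOM/DSS replicate 3 or DSS replicate 3, and 8 without AOM replicate 3. Of 7 mast cell markers none was called by limma and 0 had an unadjusted p under 0.05, but 2 were below additive without AOM/DSS replicate 1.

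Absorptive colonocyte genes were among those lowest in the neoplasms. Of 20 tested, 7 were below (35% against 15.7% of all genes) and none above additive, with a median of -1.22 (-1.63 with the block). Without 1 array 5 to 7 were below, and 1 was above without AOM replicate 1 or control replicate 3. The water channel Aqp8 measured 8.80, 8.38 and 7.79 in control, 6.79, 7.53 and 7.18 after DSS, 7.37, 5.93 and 5.79 after AOM, and 0.84, -0.26 and -3.85 in AOM/DSS. Its neoplasm arrays lay far below the rest and AOM/DSS replicate 3 lowest, a departure of -6.30 ± 1.36 (adjusted p = 0.0119; -1.92 with the block). Car4, a membrane carbonic anhydrase, departed by -5.47 ± 1.18 (adjusted p = 0.0119; -2.11 with the block), and the chloride exchanger Slc26a3 by -3.89 ± 1.33 (adjusted p = 0.0435). The value of Slc26a3 was 1.86 with the block, and its call ended without any 1 array but AOM/DSS replicates 1 or 3 (adjusted p up to 0.0874). Slc51a, a subunit of the basolateral bile acid transporter, rose after AOM from background in control and was at least 4.21-fold below its additive sum in AOM/DSS (fitted departure -4.10 ± 0.64, adjusted p = 0.0072; -6.68 with the block). The cytosolic carbonic anhydrase Car1 departed by -1.68 ± 0.55 (adjusted p = 0.0375; -2.37 with the block), a call that ended without any 1 of 8 arrays, those other than AOM replicate 3, AOM/DSS replicate 1, DSS replicate 1 and control replicate 3 (adjusted p up to 0.0828). On the linear scale, where changes are added and not multiplied, Aqp8, Car4 and Slc26a3 lay above the additive sum.

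The goblet cell product Retnlb, resistin-like molecule beta, had the largest of the 12 leading negative departures. It was at 6.66, 7.92 and 7.02 in control, 7.14, 5.60 and 7.86 after DSS, 6.66, 7.69 and 7.48 after AOM, and 1.41, -2.42 and -2.65 in AOM/DSS. Control and single-agent arrays overlapped fully and the neoplasms lay well below them, a departure of -8.16 ± 1.36 (adjusted p = 0.0082; -4.89 with the block). Retnlb was counted in the antimicrobial list and is not a member of the goblet cell list. Of 15 goblet cell genes 5 were below (33.3% against 15.7% of all genes) and none above additive. But none was called without AOM replicate 1 or DSS replicate 3, and 1 without DSS replicate 2 or control replicates 2 or 3. The count was 3 without AOM replicate 3, AOM/DSS replicate 2 or control replicate 1. The list median was -1.18 and only -0.11 with slide as a block, and 8 were below under median scaling and 1 with quantile normalization. Muc2, the main secreted mucin, departed by -1.55 (interval -3.38 to 0.28, adjusted p = 0.157; 0.15 with the block). Among tuft cell genes 4 of 8 were below (50% against 15.7% of all genes), and 2 without AOM replicates 1 or 2, AOM/DSS replicate 2, DSS replicates 2 or 3 or control replicates 1 or 2. The transcription factor gene Gfi1b was not well above background on any AOM/DSS array and at least 7.18-fold below its additive sum (fitted departure -3.72 ± 0.61, adjusted p = 0.0079; -4.75 with the block).

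Of 12 general epithelial genes 5 were below (41.7%) and 1 above additive (8.33%), against 15.7 and 19.5% of all genes. The count below was 3 without AOM/DSS replicate 1 or DSS replicate 2 and 2 without DSS replicate 3. Cdx2, the homeobox factor of intestinal identity, was at 1.23, 1.10 and 0.96 in AOM/DSS and between 3.36 and 4.57 elsewhere, a departure of -2.57 ± 0.44 (adjusted p = 0.0086; -2.81 with the block). Keratin Krt19 departed by -1.81 ± 0.38 (adjusted p = 0.0116; -1.89 with the block). The basal keratin Krt14 had risen after AOM by 2.73 (adjusted p = 0.0064) and departed by -3.12 ± 0.68 (adjusted p = 0.0121; -1.76 with the block). Sptssb, a subunit of serine palmitoyltransferase, rose after DSS by 4.76 and after AOM by 3.24 (adjusted p = 0.0054 and 0.0038). It measured -2.95, -1.37 and -2.64 in control, 2.16, 2.94 and 2.23 after DSS, 1.57, 0.58 and 0.61 after AOM, and between -1.39 and -0.41 in AOM/DSS. The neoplasms lay below all single-agent arrays and overlapped control, where replicate 2 was level with AOM/DSS replicate 3, a departure of -6.62 ± 0.64 (adjusted p = 0.0014; -6.33 with the block).

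Of 17 xenobiotic metabolism genes 7 were below (41.2% against 15.7% of all genes) and none above, and 7 or 8 were below without 1 array. The list median was -1.42 (-1.37 with the block). The cytochromes Cyp2f2 and Cyp2c55 were at -3.16, -7.42 and -7.02 and at -1.38, -5.05 and -5.96 in AOM/DSS, and above 0.30 on every other array. They departed by -5.85 ± 1.39 and -5.53 ± 1.43 (adjusted p = 0.0147 and 0.0182; -4.33 and -1.26 with the block). Cyp2f2 was not well above background on every array, so the size of its departure is uncertain. Nqo1, a quinone reductase, departed by -2.73 ± 0.66 (adjusted p = 0.0153; -4.80 with the block). Of 19 oxidative phosphorylation genes 6 were below (31.6% against 15.7% of all genes), each of them lower in AOM/DSS than in the other groups. Uqcrc1 of complex III and Sdhb of complex II departed by -2.04 ± 0.38 and -1.55 ± 0.39 (adjusted p = 0.0099 and 0.0173; -2.29 and -2.26 with the block). The count of 6 was 2 to 5 without any 1 array but DSS replicate 1, and 10 without that array. With quantile normalization 2 were above and 3 below, and the list median of -0.83 became -0.13 (-0.11 in the deposited matrix).

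Genes of the exocrine pancreas had a median departure of 3.06, which rests on few arrays. Control replicate 3 had a list median of 6.02 and DSS replicate 1 of 3.07, against 1.13 and -0.64 for control replicates 1 and 2, and the remaining 8 arrays had -3.30 to -2.17, and 1 of 17 genes was called in each direction. The 1 above was the lipase-related gene Pnliprp1, at 7.18 ± 2.54 (adjusted p = 0.0487; 9.70 with the block), whose call ended without any 1 array but DSS replicate 1. Sycn, a secretory granule protein that was high in all controls (8.45, 8.59 and 8.49), did not follow this order. It was at 7.21, 7.55 and 7.19 after DSS, 6.54, 6.36 and 6.21 after AOM, and 2.19, 0.56 and -1.92 in AOM/DSS, a departure of -4.90 ± 1.07 (adjusted p = 0.0120; -0.83 with the block).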

How the data were processed

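One-colour Agilent arrays measured total RNA expression in 12 samples. The deposited intensity is the processed signal, which per the file headers was made by version 10.7.3.1 of Agilent's Feature Extraction with background subtracted (the submitters' processing notes give 10.7). The deposited series matrix holds log2 values that the authors' processing left quantile-normalized, as checked on the columns (median 6.174 on each array, correlation 0.9947 to 0.9998 with the scanner values), and served as an alternative. Of 41174 non-control probes, 27198 had a gene symbol and 13976 none. No spot was saturated.

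Each array's log2 processed signal was scaled to its 75th percentile. A probe was kept if some group had it well above background on each of its 3 arrays, which left 18953 genes. A model of 4 group means was fitted with limma 3.58.1 in R 4.3.3, with Benjamini-Hochberg adjustment over all genes, and intervals are 95%. Python 3.11.15, pandas 2.3.3 and matplotlib 3.10.9 were used for the rest. Tested on simulated data with 18953 genes, the departure test recovered 45% of departures of 2 log2 units and 75% of those of 4, with 5 false calls. The simulation changed 200 genes and left all others additive, with noise independent between genes and no slide effect. Its rates of recovery and false calls therefore need not hold for these arrays.

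Named genes were the 12 largest departures in each direction among called genes with a symbol that were well above background and unsaturated on 12 arrays, with all 3 AOM/DSS arrays on 1 side of the additive sum and the sign kept without each array. To these were added up to 3 called members of each of 41 gene lists (or the 1 with the smallest p) and a panel of 20 genes. The members and lists were chosen with earlier results of these data known. Alternatives covered background correction, scaling, filter, probe summary, slide, replicate number, array weights and leaving out each array. A fold below the additive sum for a gene not above background is a bound against the lowest signal well above background. The number of arrays limits precision.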

Additional observations from a re-analysis of the deposited data

Results flagged for a closer look

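The interaction term tests whether AOM/DSS minus AOM differed from DSS minus control, and 6683 genes passed it. Tissue type, collection and AOM dose also differ between these groups and cannot be told apart from an interaction of the agents. The genes printed in the results that passed this test are given here with their departures. The departures above additive, in log2 units, were Pnliprp1 7.18, Aspa 5.65, Lgr5 5.54, Slc10a2 5.04, Rnf32 4.73, Pou5f2 4.35, Ugt2b35 4.14, Firre 4.03 and Neat1 3.95. Further departures above additive were Defa3 3.81, Slc39a8 3.78, Kcnq1ot1 3.72, Zfp160 3.70, Zfp932 3.69, Ccdc141 3.48, Znrf3 3.42, Hpgds 3.35 and Xist 3.21. Smaller ones above additive were Malat1 3.14, Ciart 3.09, Smoc2 2.69, Nr1d2 2.60, Per3 2.54, Ppargc1a 2.48, Bnip3 2.45, Vegfa 2.45 and Ereg 2.32. The smallest printed above additive were Trp53inp1 2.25, Ccne2 1.97 and Clock 1.85. The departures below additive, in log2 units, were Fcmr -8.36, Retnlb -8.16, Gcg -7.11, Cck -6.98, Vpreb3 -6.89, Insl5 -6.75, Sptssb -6.62, Cd79b -6.42 and Sfrp2 -6.39. Next below additive were Aqp8 -6.30, Chst3 -6.08, Ppy -5.97, Spib -5.92, Bfsp2 -5.91, Cyp2f2 -5.85, Tnfrsf13c -5.81, Sprr1a -5.80 and Cd79a -5.77. Then, below additive, came Cyp2c55 -5.53, Car4 -5.47, Sycn -4.90, Des -4.72, Cnn1 -4.17, Slc51a -4.10, Slc26a3 -3.89, Ccl5 -3.81 and Gfi1b -3.72. Smaller ones below additive were Wfdc18 -3.46, Sparc -3.27, Krt14 -3.12, Trabd2b -2.95, Nqo1 -2.73, Irf7 -2.70, Cdx2 -2.57, Slpi -2.34, Plaur -2.24, Nr1d1 -2.20, Timp1 -2.10 and Uqcrc1 -2.04. The smallest printed below additive were Krt19 -1.81, Car1 -1.68, Plk1 -1.66, Sdhb -1.55 and Arntl -1.52. No group had the 4 arrays that a test for a single distant array needs.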

How the results depend on the processing

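The sign of the departure was kept in at least 6644 of the 6683 called genes under each log2-scale alternative run on all of them, and in 6612 when signals were added on the linear scale. These genes were called on the same arrays that the alternatives use, so the agreement of sign is not independent support. Counts within 1.5 times of 6683 came from median scaling (7170), quantile normalization (6273), the deposited matrix (6254), no filter (5639), the mean of a gene's probes (6801), the symbol-probe percentile (6576) and, both chosen after seeing the data, plain background subtraction (5852) and a median over measured symbol probes (6635). Normexp background correction called 73 genes, 17 above and 56 below additive (4178 at an unadjusted p under 0.05). It raised the 10th percentile of log2 signal to 9.92 on DSS replicate 2, 9.82 on control replicate 1 and 7.71 on control replicate 2, against 6.01 to 6.73 on the other arrays. Requiring signal on all 12 arrays gave 2115 above and 2747 below (43.5% above), and symbol genes alone 4046, of them 1600 above and 2446 below (39.5% above); both test fewer genes. Slide as a fixed block called 2, of them 2 above and 0 below (2819 unadjusted); as a random block 4826 were below. Array weights gave 10166, with 5148 below. The cause of these last differences was not tested. Without 1 array, 3582 to 8726 genes were called, 2240 to 4485 above and 1342 to 4241 below. With slide as a block the sign turned, among called genes named, for Trabd2b (0.64), Zg16 (1.07), Clca1 (2.41) and Slc26a3 (1.86), and among uncalled genes printed for Muc2 (0.15), Epcam (0.27) and Cdh1 (0.16). With quantile normalization the count below additive was 1 for macrophage and goblet genes and 0 for p53 targets and fibroblast genes. When signals were added on the linear scale the sign was 1, above additive, for Aqp8, Wfdc18, Car4, Fcgbp, Trpm5, Cyp2f2, Slco2a1, Sycn and Slc26a3. Whether the replicate numbers pair the samples was not settled. Of 18 same-number correlations 9 exceeded 0.1 (range -0.27 to 0.25), and different-number correlations ranged from -0.26 to 0.38. With replicate number as a block 6033 genes were called.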

Other observations

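Of all genes, 19.5% were above and 15.7% below additive. Heat shock and immediate early genes, which respond within minutes to handling or stress, were below additive in 6 of 15 cases (40%) and above in none. The count was 1 without DSS replicate 2, 2 without DSS replicate 3, 3 without AOM/DSS replicate 2 or control replicate 2, and 10 without DSS replicate 1. With slide as a block the list median was -0.20 in place of -1.10. Ribosome biogenesis genes were above additive in 4 of 16 (25%) and below in 2 (12.5%), near the shares of all genes, and under median scaling in 0 and 2. Without AOM replicate 1, AOM/DSS replicates 1 or 3, DSS replicates 2 or 3 or control replicate 2 none was above, 1 was above without control replicate 3 and 2 without AOM replicate 2. The count below was 0 to 4 without 1 array. Of 16 genes of the unfolded protein response 3 were below (18.8%, near the share of all genes) and none above. None was below without AOM replicate 1, AOM/DSS replicate 1 or DSS replicates 2 or 3, 1 without AOM replicate 3 or AOM/DSS replicate 3, and 8 without DSS replicate 1, and 1 was above without control replicate 1. Fatty acid oxidation genes were below in 5 of 18 (27.8%) and above in 1 (5.56%). Without DSS replicate 2 none was below, 5 were without DSS replicate 1, 4 without AOM replicate 3, 3 without control replicate 1, 2 without AOM/DSS replicate 2 and 1 without any other array, as with quantile normalization.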
